A study of Mus musculus and Sus scrofa with 18 samples.

Results

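The interferon-gamma induced GTPases described here are 6 guanylate-binding protein genes, Gbp2, Gbp3, Gbp4, Gbp5, Gbp6 and Gbp7, and 4 immunity-related GTPase genes, Igtp, Irgm1, Irgm2 and Iigp1. They were chosen by name, and their symbols were matched to the gene identifiers of the mouse count table. All 10 were found among the 55357 genes of that table, and all 10 were among the 19463 genes with enough counts to be tested. RNA came from the striatum of 9 mice in 3 groups of 3. The WT mice carried no knock-in allele and received an AAV9 vector with a control guide RNA and no CasRx, the RNA-cutting enzyme of the study. The untreated group were HD 140Q-KI mice, in which exon 1 of human HTT with an expanded CAG repeat replaces that of 1 mouse Htt allele, given AAV9-CasRx with the control guide. The treated group were HD 140Q-KI mice given AAV9-CasRx with guides against HTT. Vectors were injected into the striatum of both sides at 6 months of age and the mice were killed 6 weeks later. CasRx was driven by the ubiquitous CAG promoter, and since WT mice did not receive it, the allele and the enzyme's vector cannot be told apart in either comparison with WT.

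Guanylate-binding proteins and immunity-related GTPases are large GTP-hydrolysing proteins of cell-autonomous defence. Cells hold little of them at rest and make much more when interferon-gamma, a cytokine released mainly by T and NK cells, binds its receptor and activates the kinases JAK1 and JAK2. The signal reaches the genes through GAS elements, and through ISRE elements, which IRF1 binds and which also answer to type I interferon. The proteins coat and break the vacuoles and membranes of intracellular microbes, and in the brain microglia, astrocytes and endothelial cells can all make them.

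The promoters of the members are shown first because they hold the elements through which interferons act. RefSeq gives promoter windows of 300 bases, from 250 before to 50 after a transcription start, for 7 of the 10 members, and none was given for Gbp4, Gbp6 and Iigp1. A search on both strands for GAAANNGAAA, a core of the ISRE, and for TTCNNNGAA, the GAS element, found an ISRE in 7 of the members' 8 windows (1 in each gene, as Gbp3 has 2 windows), against 3.44% of 32851 windows over all genes. The GAS letters were in 4 of 8 windows, against 8.3% of all windows. Both motifs were in 4 of 8, those of Gbp5, Gbp7, Igtp and Irgm2, against 0.454% of all windows. The bases before the start are printed 5′ to 3′ in the direction of the gene (RefSeq, GRCm38.p6), 110 bases each and 170 for Gbp5, whose ISRE lies farther out; capitals mark the matches.
Gbp2 (chr3:142620553-142620662, + strand): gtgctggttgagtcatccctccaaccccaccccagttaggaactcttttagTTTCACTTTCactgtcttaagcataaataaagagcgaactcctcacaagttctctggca
Gbp3 (chr3:142559934-142560043, + strand): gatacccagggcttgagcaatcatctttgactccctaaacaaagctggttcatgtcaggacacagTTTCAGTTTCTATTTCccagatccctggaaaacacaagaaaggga
Gbp5 (chr3:142496764-142496933, + strand): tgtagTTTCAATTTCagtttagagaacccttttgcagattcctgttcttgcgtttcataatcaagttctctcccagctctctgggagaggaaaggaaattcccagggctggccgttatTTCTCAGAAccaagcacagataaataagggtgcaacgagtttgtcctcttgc
Gbp7 (chr3:142530226-142530335, + strand): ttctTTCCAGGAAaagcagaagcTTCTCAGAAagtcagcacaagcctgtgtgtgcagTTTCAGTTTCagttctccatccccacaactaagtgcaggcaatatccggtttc
Igtp (chr11:58199446-58199555, + strand): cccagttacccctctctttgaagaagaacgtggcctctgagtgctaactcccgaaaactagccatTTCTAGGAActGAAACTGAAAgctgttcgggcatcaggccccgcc
Irgm1 (chr11:48871421-48871530, - strand): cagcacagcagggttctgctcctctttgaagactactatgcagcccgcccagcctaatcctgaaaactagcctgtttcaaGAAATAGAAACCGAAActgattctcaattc
Irgm2 (chr11:58214867-58214976, + strand): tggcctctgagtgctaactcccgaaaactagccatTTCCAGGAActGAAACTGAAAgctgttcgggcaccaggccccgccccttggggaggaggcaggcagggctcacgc

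In 6 of the 7 the ISRE began no farther out than −64, at −59 to −50 in Gbp2, −53 to −44 in Gbp7 and −34 to −25 in Igtp. In Gbp3 and Irgm1 3 GAAA units stood in a row, giving 2 overlapping matches, from −45 to −30 and from −30 to −15. In Igtp and Irgm2 the GAS and ISRE stood side by side, and the windows of these neighbours on chromosome 11 shared an identical run of 61 bases. No other pair of members shared a run longer than 13 bases. The second start of Gbp3, which RefSeq lists apart, held neither motif. Among the constitutive relatives with a window, 0 of 4 held either motif, beside 11.3% of all windows, so that 4 windows are too few for a contrast. Of the other interferon-inducible GTPases with a window, 5 of 7 held an ISRE. A match describes letters only, and no binding was measured.

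**Figure D1:**
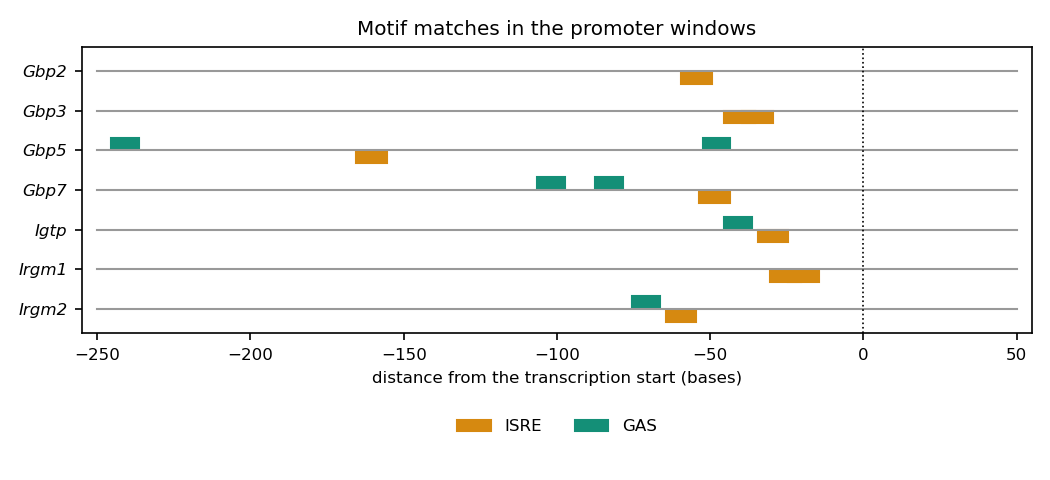
Positions of ISRE and GAS matches in bases from the transcription start (x axis) for the 7 members with a RefSeq window; each grey line is one window. ISRE matches begin at −64 or nearer in all but Gbp5, where it lies at −165 to −156.

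Levels are given as CPM, a gene's counts per 1000000 counts of its library after TMM scaling, which allow a gene to be compared between mice but not with another gene. Libraries held 27184356 to 32102121 counts each. Htt stood at 182 to 191 CPM in WT, 140 to 150 in untreated and 130 to 140 in treated mice. Treated did not differ from untreated in the test (log2 fold change −0.10, SE 0.06, unadjusted P = 0.131). The guides were designed against the human exon of the knock-in allele. The gene-level count does not separate that allele from the mouse allele, so it cannot show whether the targeted transcript fell. For mice injected at the same age as these, the paper reports less mutant HTT mRNA (RT-qPCR) and protein (Western blot) after treatment. Counts of 4 Y-linked genes summed to 3435 to 5005 in the 3 WT libraries and in untreated mouse 1, and to 0 in the other 5. For treated against WT, the presence of Y-linked counts and the group cannot be told apart. Markers of striatal projection neurons, which define the tissue, were present throughout, at a summed 5282 to 6971 CPM in WT mice, 1640 to 1951 in untreated mice and 2659 to 2694 in treated mice.

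The GTPases were low and even in WT mice, higher in every HD mouse of both groups, and spread widely among the HD mice. Summed over the 10 genes they stood at 36.5, 32.6 and 38.4 CPM in WT mice 1, 2 and 3, at 116, 222 and 1144 CPM in the untreated mice, and at 120, 194 and 783 CPM in the treated mice. As a share of a library's counts this was 0.0032% to 0.0037% in WT, 0.0116% to 0.116% in untreated and 0.0122% to 0.0794% in treated mice. The mean of the 10 genes' log2 CPM above the WT mean was 1.75, 2.71 and 5.09 in untreated mice (3.18 ± 1.72, SD, n = 3) and 1.87, 2.51 and 4.52 in treated mice (2.96 ± 1.38, SD, n = 3). The WT mice lay between −0.17 and 0.15 on that scale. The 2 HD groups therefore overlapped with each other and neither overlapped with WT. In bulk tissue, more cells of a type that makes these transcripts and more transcript per cell cannot be told apart.

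**Figure D2:**
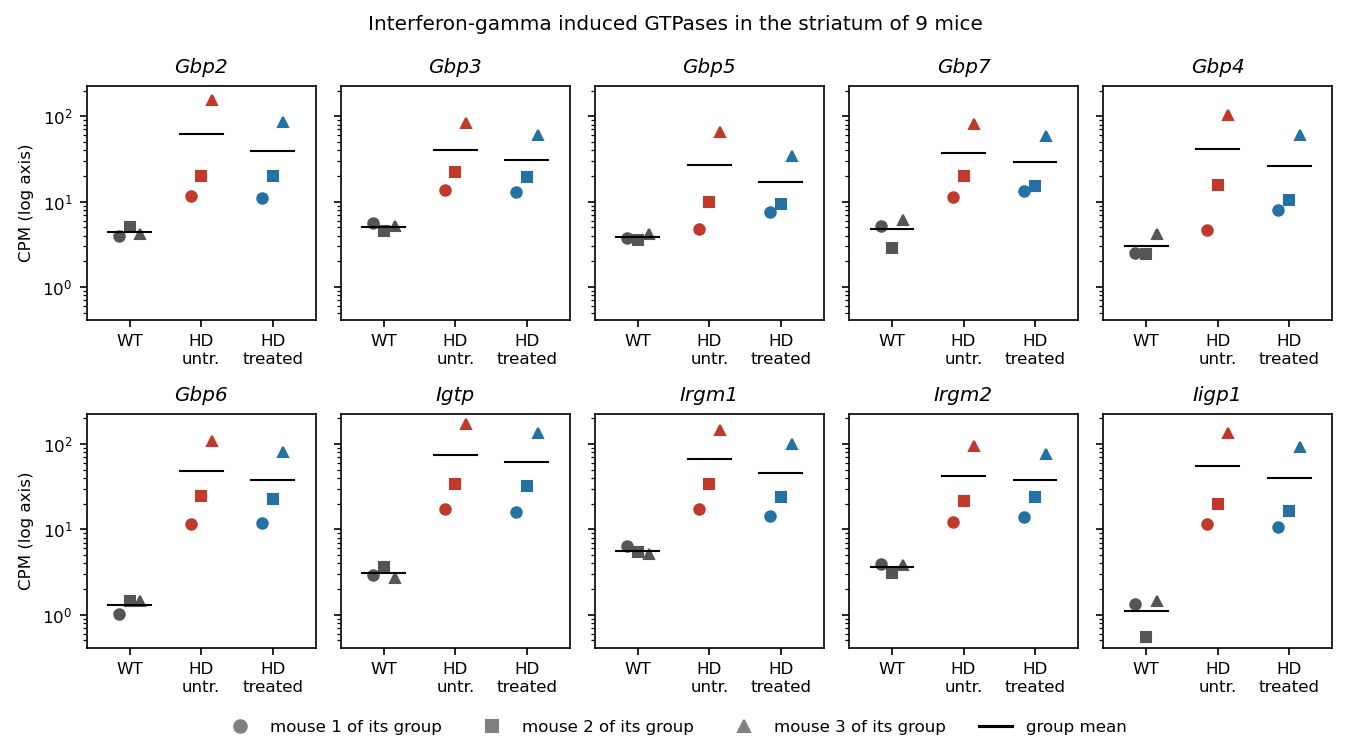
CPM on a log axis of the 10 members in 9 mice. Symbols mark the mouse numbers within each group and black lines the group means. Nothing states that the numbers link mice across groups. Every HD mouse lies above every WT mouse for all 10 genes, and the mouse numbered 3 is the highest in both HD groups.

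Among the guanylate-binding proteins encoded on chromosome 3, Gbp2, which helps to attack pathogen vacuoles, stood at 3.97, 5.03 and 4.22 CPM in WT mice. It stood at 11.6, 20.2 and 155 CPM in untreated and at 10.9, 20.0 and 85.5 CPM in treated mice. The lowest HD mouse was at 2.17 times the highest WT mouse, and 1 mouse in each HD group was far above its group. Gbp3 stood at 5.55, 4.51 and 5.12 CPM in WT mice, at 13.6, 22.2 and 83.9 in the untreated group and at 12.8, 19.3 and 59.6 in the treated group, the same layout on a narrower range. Gbp5, which is known to promote assembly of the NLRP3 inflammasome, stood at 3.74, 3.52 and 4.22 CPM in WT mice, at 4.84, 9.84 and 66.1 in the untreated group and at 7.57, 9.46 and 33.9 in the treated group. Its lowest untreated mouse was only 1.15 times the highest WT mouse. Gbp7, which acts in vacuole and oxidative defence, stood at 5.25, 2.86 and 6.05 CPM in WT mice, at 11.4, 19.9 and 81.5 in the untreated group and at 13.3, 15.2 and 59.0 in the treated group. Its WT mice differed by 2.11 times among themselves, and the lowest HD mouse was still 1.88 times the highest of them.

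The chromosome 5 cluster held, in untreated mice, the gene with the smallest gap to WT and the one with the largest. Gbp4 stood at 2.53, 2.42 and 4.22 CPM in WT mice, at 4.67, 15.6 and 102 in the untreated group and at 8.06, 10.4 and 60.9 in the treated group. Untreated mouse 1 exceeded the highest WT mouse by 1.11 times, and the untreated mice spanned 21.9-fold, the widest of the 10 genes. Gbp6 stood at 1.02, 1.43 and 1.46 CPM in WT mice, at 11.7, 24.9 and 108 in the untreated group and at 12, 22.8 and 80.4 in the treated group. Its lowest untreated mouse was 8.01 times, and its lowest treated mouse 8.17 times, the highest WT mouse. The counts deposited do not say how reads shared by near-identical members of these clusters were assigned, so the values of single guanylate-binding proteins are less certain than their common course.

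Of the immunity-related GTPases, Irgm1 and Irgm2 belong with Igtp (Irgm3) to the regulatory kind that sits on the cell's own membranes and keeps the effectors in check, while Iigp1 (Irga6) is an effector that loads onto parasite vacuoles. Igtp stood at 2.91, 3.67 and 2.69 CPM in WT mice, at 17.5, 33.6 and 170 in the untreated group and at 15.9, 32.4 and 136 in the treated group. Irgm1 stood at 6.31, 5.51 and 5.12 CPM in WT mice, at 17.5, 34.3 and 147 in the untreated group and at 14.5, 23.9 and 99.1 in the treated group. For both, every HD mouse exceeded the highest WT mouse by at least 2.30 times. Irgm2 stood at 3.89, 3.08 and 3.86 CPM in WT mice, at 12.1, 21.6 and 94.6 in the untreated group and at 14.1, 24.2 and 75.7 in the treated group. Its group means, 42.8 and 38.0 CPM, were the closest of the 10 between untreated and treated mice as a ratio. Iigp1 stood at 1.32, 0.551 and 1.46 CPM in WT mice, at 11.6, 19.7 and 136 in the untreated group and at 10.7, 16.2 and 92.9 in the treated group. Its lowest untreated mouse was 7.94 times and its lowest treated mouse 7.31 times the highest WT mouse.

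Against WT, 7 of the 10 members were called higher in untreated HD mice by the quasi-likelihood test of edgeR, adjusted after Benjamini and Hochberg over all 19463 genes (adjusted p under 0.05), beside 4.58% of all genes called higher. All 10 members had an unadjusted P under 0.05 and at least a 2-fold rise, beside 5.57% of all genes, and in all 10 the 3 untreated mice lay above the 3 WT mice, beside 15% of all genes. The median log2 fold change of the members was 3.65, against 0.017 over all genes tested. The largest were Iigp1 (log2 fold change 5.63, SE 1.27, edgeR adjusted p = 0.0252) and Gbp6 (5.20, SE 1.03, adjusted p = 0.0163). Igtp followed at 4.57 (SE 1.06, edgeR adjusted p = 0.0280), then Irgm2 at 3.56 (SE 0.86, adjusted p = 0.0320) and Irgm1 at 3.55 (SE 0.92, adjusted p = 0.0393). Gbp7 stood at 2.99 (SE 0.83, edgeR adjusted p = 0.0492) and Gbp3 at 2.98 (SE 0.76, adjusted p = 0.0373), so that the 4 immunity-related GTPases and 3 of the 6 guanylate-binding proteins rose. The other 3 did not pass: Gbp2 at 3.82 (SE 1.08, edgeR adjusted p = 0.0533), Gbp4 at 3.73 (SE 1.17, adjusted p = 0.0714) and Gbp5 at 2.81 (SE 0.94, adjusted p = 0.0862). Untreated mouse 3 stood 6.18 to 21.9 times above untreated mouse 1 in these genes, and the SE ran from 0.76 to 1.27 on the log2 scale.

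How many members passed depended on single mice, while no direction did. Leaving out WT mouse 1, 2 or 3 left 2, 0 and 0 members called, leaving out untreated mouse 1, 2 or 3 left 10, 4 and 2, and leaving out treated mouse 1, 2 or 3, which share the estimate of spread, left 6, 3 and 8. The share of all genes called in these smaller fits is not given here, so the counts do not set the members apart from other genes. Without untreated mouse 3 the members' median log2 fold change was 2.03 in place of 3.65. Untreated mouse 1 is the one HD library with Y-linked counts, as all WT libraries have; its 10 members exceeded the highest WT mouse by 1.11 (Gbp4) to 8.01 (Gbp6) times. With the presence of Y-linked counts as a term in the fit, this comparison sets untreated mouse 1 alone against the WT mice. The members' median log2 fold change was then 1.53, positive in 10 of 10.

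In treated HD mice against WT, 1 member was called higher, Gbp6 (log2 fold change 4.87, SE 1.02, edgeR adjusted p = 0.0353), beside 0.904% of all genes called higher. All 10 members had an unadjusted P under 0.05 and at least a 2-fold rise, beside 3.84% of all genes. In all 10 the treated mice lay above the WT mice, beside 13.4% of all genes. The 9 members that missed the adjusted threshold had log2 fold changes of 2.14 (Gbp5) to 5.15 (Iigp1), with edgeR adjusted p-values of 0.0547 to 0.221. The median was 3.12, against 0.0038 over all genes. DESeq2 called 8 of the 10, beside 1980 of the 19463 genes tested (in either direction). Both comparisons use the same 3 WT mice, so their likeness is not independent; the ranking of members by fold was headed by Iigp1, Gbp6 and Igtp in each.

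Leaving out WT mouse 1, 2 or 3, untreated mouse 2, or treated mouse 1, 2 or 3 left 0 members called in treated against WT, and leaving out untreated mouse 1 or 3 gave 4 and 8. For these fits too the share of all genes called is not given. Without treated mouse 3 the median log2 fold change was 1.79 in place of 3.12. With the Y-linked term it was 0.64 with 0 called, and Gbp4 and Gbp5 then stood at −0.55 and −0.83; the term and this comparison share most of their information, since no treated library and every WT library has such counts.

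**Figure D3:**
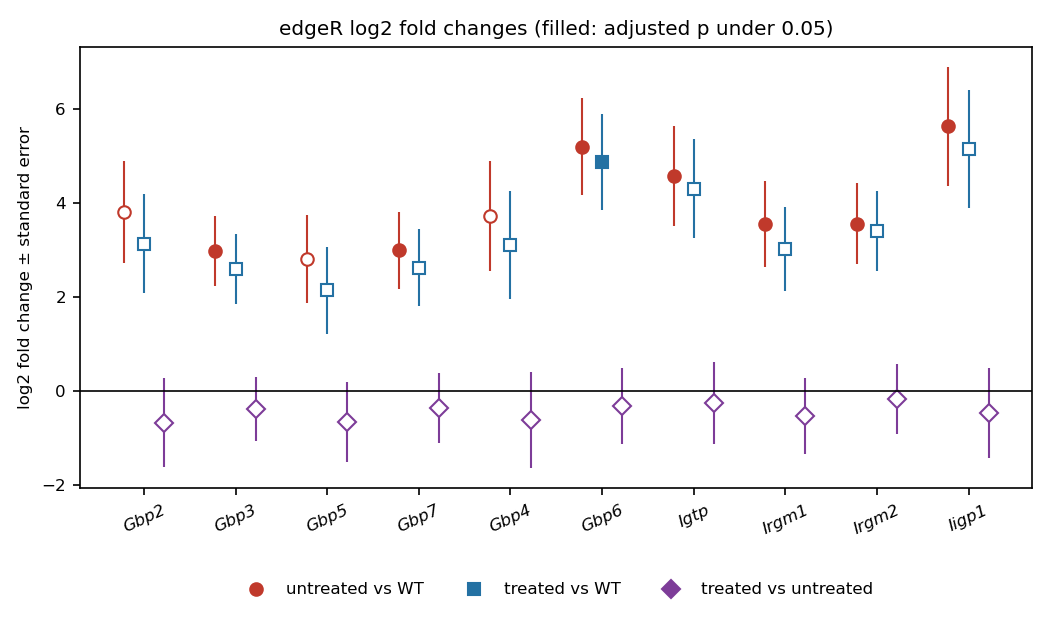
edgeR log2 fold change with its standard error for each member in 3 comparisons; filled symbols passed an adjusted p of 0.05. Both HD groups sit at 2.14 to 5.63 above WT, and treated against untreated lies between −0.68 and −0.17 with error bars that all cross 0.

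Treated against untreated addresses whether targeting HTT moved these transcripts in HD mice. No member was called by edgeR (0 of 10, beside 0% of all genes), none had an unadjusted P under 0.05, none met the P under 0.05 and 2-fold rule (beside 0.771% of all genes), and DESeq2 called none of the 10 either. Over all genes 1071 had an unadjusted P under 0.05 by edgeR, and DESeq2 called 49. Treated values were lower on average for all 10, with log2 fold changes of −0.68 (Gbp2, SE 0.94) to −0.17 (Irgm2, SE 0.75) and unadjusted P of 0.457 to 0.825 by edgeR. The members' median was −0.43, against −0.014 over all genes. With an SE of 0.68 to 1.02, a 2-fold difference in either direction, which is 1 on this scale, would lie within 2 SE. The sign itself rested on single mice: without untreated mouse 3 all 10 were positive (median 1.19), without treated mouse 3 all 10 were negative (median −1.62), and without treated mouse 1 or 2 the median was −0.01 and −0.11. Without untreated mouse 1 or 2 the median was −0.87 and −0.75, with 0 members called in each. With the Y-linked term it was −0.88, also with 0 called. In this comparison the term takes up untreated mouse 1 entirely, so it repeats the fit without that mouse and is not a separate check.

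Within each HD group the mice differed widely in these genes. In both HD groups the mouse numbered 3 was highest and that numbered 1 lowest for 10 of 10 members, an order that 21.3% of all genes had in untreated and 16% in treated mice. The highest mouse was 6.18 (Gbp3) to 21.9 (Gbp4) times the lowest in the untreated group and 4.45 (Gbp7) to 8.69 (Iigp1) times in the treated group. The members' median SD between mice, in log2 CPM, was 1.66 in untreated and 1.41 in treated mice, against 0.16 and 0.12 over all genes, and 0.21 in WT, against 0.22 over all genes. Over the 6 HD libraries the pairwise Pearson r between members ran from 0.968 to 0.998 (45 pairs, all from the same libraries, with no test), and the span between the mice differed among the genes as given. Leaving out both HD mice numbered 3, a choice made after seeing the data, 8 of 10 members were called in each comparison with WT. The share of all genes called in that fit is not given. The medians were 2.03 for untreated and 1.79 for treated mice, and treated against untreated had a median of −0.11.

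The size of the difference from WT varied among the families. Median log2 fold changes in untreated and treated mice were 2.98 and 2.61 for the 4 chromosome 3 guanylate-binding proteins, 4.47 and 3.99 for the 2 of chromosome 5, and 4.07 and 3.85 for the 4 immunity-related GTPases. The families overlapped in range, since Gbp2 of chromosome 3 exceeded Irgm1 and Irgm2 in untreated mice. Within the printed promoters, Gbp5, with both motifs but its ISRE far from the start, had the smallest log2 fold change in both comparisons, 2.81 and 2.14. Gbp2, with an ISRE and no GAS letters, had 3.82 and 3.14. With 7 promoters these values are a description only, and motif content was not tested against the rise.

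Other interferon-inducible GTPases followed the members. Of 16 listed, 15 were tested. All 15 had an unadjusted P under 0.05 and at least a 2-fold rise in both comparisons, beside 5.57% and 3.84% of all genes. At an adjusted p, 7 were called higher in untreated mice and 1 in treated mice, beside 4.58% and 0.904% of all genes. Gm4841, F830016B08Rik, Gm12250, Gm5431, Gm4951, Gbp8 and Gbp10 had single-digit or no counts in every WT library. They passed the count filter only through the HD mice and could only come out higher, so they add nothing to the tally. The median log2 fold change was 3.90 and 3.42, unchanged when the 2 genes with no more than 3 counts in any WT library were set at their bound. The smallest P in untreated mice belonged to Gm4951, an immunity-related GTPase gene, at 6.59 (SE 1.29, edgeR adjusted p = 0.0155), and it was the one called in treated mice at 6.0 (SE 1.28, adjusted p = 0.0376). Gm4951 stood at 0.0756, 0.0734 and 0.266 CPM in WT mice, at 2.35, 6.35 and 33.7 in the untreated group and at 4.01, 5.14 and 19.0 in the treated group, on 2 to 8 counts per WT library. Gbp8 (6.19, SE 1.43) and Gbp10 (6.80, SE 1.63) came next in untreated mice, also from single-digit WT counts.

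The constitutive relatives, which share the GTPase fold but are not interferon genes (the atlastins, which shape the endoplasmic reticulum, among them), are a comparison list of 5. Their summed level, which the abundant atlastins and Irgq decide, was 318 to 361 CPM in WT, 357 to 387 in untreated and 350 to 375 in treated mice. Irgc1, at 0.0646 to 0.672 CPM over the 9 mice, had a log2 fold change of 1.05 in untreated mice (SE 0.77, edgeR adjusted p = 0.403). Atl1, needed for axonal endoplasmic reticulum, was called slightly higher in untreated mice (log2 fold change 0.30, SE 0.08, edgeR adjusted p = 0.0490). None of the 5 was called in treated mice by edgeR or DESeq2, although 3 had an unadjusted P under 0.05.

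Upstream, Ifng, the cytokine itself, had 0 counts in each of the 3 WT libraries, which allows up to 3 counts in each, then 0, 4 and 20 counts in untreated and 3, 2 and 3 counts in treated mice 1, 2 and 3, too few to be tested. Untreated mouse 3 had the most Ifng counts and the highest level of every member. The treated mice had 2 or 3 Ifng counts each but differed widely in the members. A link between Ifng and the members was not tested. Ifngr2, the signalling chain of the receptor, stood at 19.4, 15.9 and 17.3 CPM in WT mice, at 33.7, 30.6 and 36.8 in the untreated group and at 24.7, 26.8 and 30.0 in the treated group. It rose in untreated mice by 0.94 (SE 0.12, edgeR adjusted p = 0.00193) and in treated mice by 0.63 (SE 0.12, adjusted p = 0.0218), and unlike the members its HD mice lay close together. Ifngr1, Jak1 and Jak2 were not called in either comparison, with log2 fold changes of −0.29 to 0.35.

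Among the transcription factors and coactivators, Nlrc5, which activates MHC class I genes, rose by 4.71 in untreated mice (SE 0.99, edgeR adjusted p = 0.0203) and by 4.40 in treated mice (SE 0.98, adjusted p = 0.0429). Irf2, which competes with IRF1 for its sites, rose by 0.51 in untreated mice (SE 0.14, edgeR adjusted p = 0.0439). Irf1 stood at 5.25, 3.71 and 4.09 CPM in WT mice, at 6.88, 10.9 and 52.9 in the untreated group and at 8.46, 11.6 and 31.1 in the treated group, and missed the threshold (2.44, SE 0.76, edgeR adjusted p = 0.0711, and 1.97, SE 0.76, adjusted p = 0.172).

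Of the 5 brakes on the pathway, 2 had an unadjusted P under 0.05 and at least a 2-fold higher level in untreated mice without passing the adjusted threshold, Socs1 (log2 fold change 2.41, SE 0.83, edgeR adjusted p = 0.0934) and Socs3 (1.47, SE 0.60, adjusted p = 0.139), both feedback inhibitors of JAK kinases, and DESeq2 called 3 of the 5. Ptpn11, a phosphatase, fell by 0.43 on the log2 scale in untreated mice (SE 0.07, edgeR adjusted p = 0.00623), and none was called in treated mice by edgeR, with 2 of 5 at an unadjusted P under 0.05 and 1 called by DESeq2. Among the type I interferon genes, Irf7, the amplifier of interferon-alpha production, stood at 1.36, 1.87 and 1.26 CPM in WT mice, at 9.23, 15.8 and 83.4 in the untreated group and at 6.40, 9.52 and 41.0 in the treated group. It rose in untreated mice by 4.59 (SE 1.02, edgeR adjusted p = 0.0246), and in treated mice had 3.66 (adjusted p = 0.0764). Ifnb1 had 2 counts in 1 untreated and 2 in 1 treated library and 0 in the other 7, and Ifna2 and Ifna4 had 0 counts in all 9.

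Partner systems of these GTPases differed in their calls. The autophagy conjugation system, which immunity-related GTPases need to tell self from parasite membranes, had 0 of 10 genes called in either comparison by edgeR or DESeq2 (2 and 1 at an unadjusted P under 0.05), with log2 fold changes of −0.21 to 0.22. Of 7 inflammasome and pyroptosis genes tested, edgeR called 2 higher in untreated mice, beside 4.58% of all genes. In these mice 4 of the 7 had an unadjusted P under 0.05 by edgeR, and DESeq2 called 3. Casp4, the sensor of cytosolic lipopolysaccharide, rose by 3.75 in untreated mice (SE 0.79, edgeR adjusted p = 0.0204) and Casp1 by 2.57 (SE 0.59, adjusted p = 0.0274). None of the 7 was called in treated mice by edgeR (4 at an unadjusted P under 0.05), and DESeq2 called 2.

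**Figure D4:**
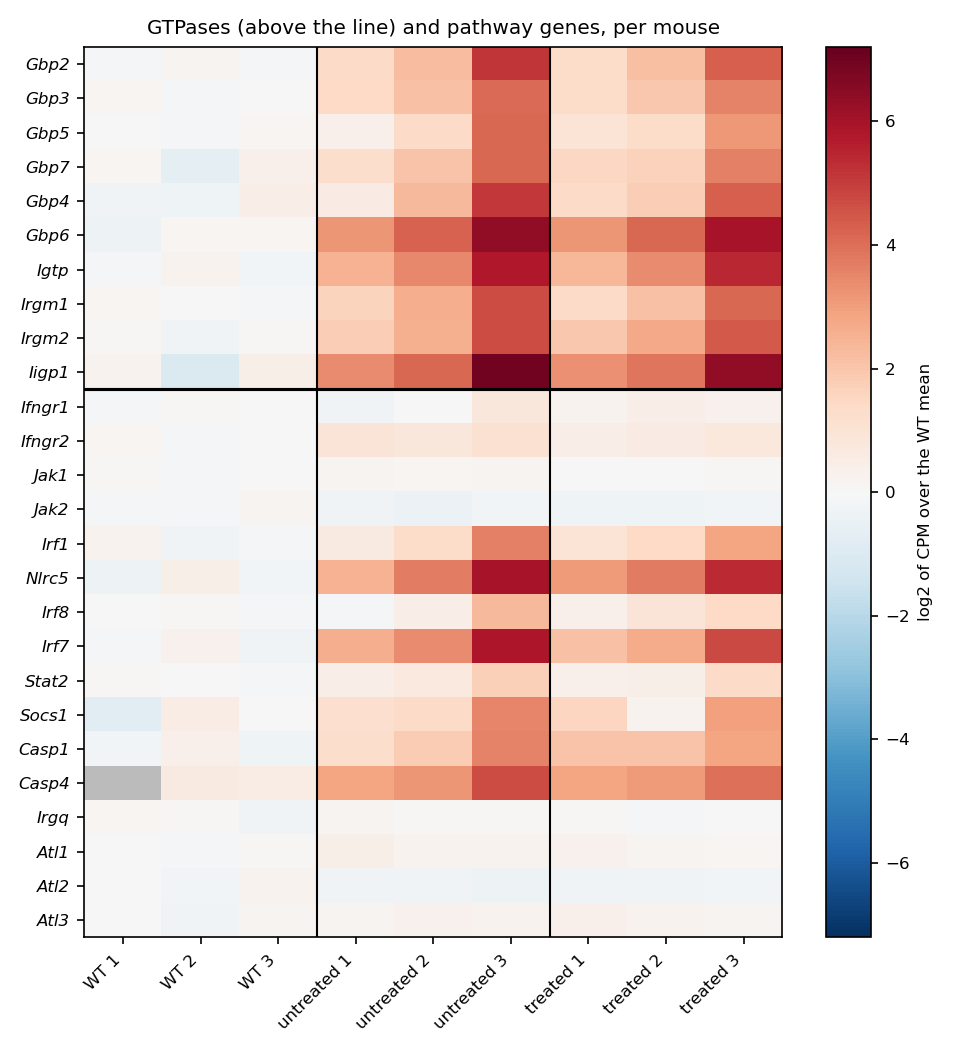
log2 of CPM over the WT mean for the 10 members (above the line) and pathway genes and relatives (below), per mouse; grey marks a count of 0. Nlrc5 and Irf7 share the members' layout with mouse 3 highest in both HD groups, while Jak1, Jak2, Irgq and the atlastins stay near 0.

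Among 12367 tested genes with a mean of at least 5 CPM outside these families, those whose log2 CPM followed the members' mean most closely over the 9 libraries included Trim12c (Pearson r 0.997), Parp12 (0.996), Tap1 (0.994) and Cd274 (0.994). Over the 6 HD libraries alone their r was 0.988 to 0.998. Tap1 loads peptides for MHC class I and Cd274 encodes the checkpoint ligand PD-L1. Their untreated log2 fold changes ran from 1.58 (Parp12) to 3.95 (Tap1). These r values share libraries and the 3-group layout, and carry no test.

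Marker sums of 3 blood-derived immune classes were higher in every HD mouse than in any WT mouse, leaving Cd4 aside, and the T and NK sum alone had the members' order of mice in both HD groups. T and NK cell markers other than Cd4 summed to 0 to 0.399 CPM in WT mice, to 2.49, 7.39 and 61.8 CPM in untreated mice 1, 2 and 3 and to 3.06, 5.77 and 15.8 CPM in treated mice 1, 2 and 3, the same order of mice as the GTPases. With Cd4 the sum was not higher in HD mice, at 62.6 to 80.2 CPM in WT, 20.7 to 76.3 in untreated and 35.6 to 47.3 in treated mice. Cd4 alone stood at 62.6, 79.8 and 73.5 CPM in WT mice and at 18.2, 21.8 and 14.5 in the untreated group. In the treated group it stood at 32.5, 31.6 and 31.5 CPM. Of 8 tested T and NK markers, 4 were called higher and Cd4 lower in untreated mice, and Cd4 lower alone in treated mice. Of all genes, 4.58% were called higher in untreated and 0.904% in treated mice. The markers other than Cd4 had 0 to 4 counts in every WT library. Those tested passed the count filter only through the HD mice and could only come out higher. Cd3d, Cd3g and Ncr1 were at 0 in all WT libraries and Ncr1 in all treated ones. Cd8a and Cd3g, of cytotoxic T cells and the T cell receptor complex, had the smallest P among the risers. Monocyte and macrophage markers summed to no more than 12.1 CPM in WT mice, to 16.6, 28.2 and 127 in the untreated group and to 30.4, 58.6 and 53.9 in the treated group, with 2 of 6 called higher (Ly6c2, Lyz2) and Cd163 lower in untreated mice, and Ly6c2 higher in treated mice. B and plasma cell markers summed to 0.918 to 1.44 CPM in WT mice, to 8.42, 40.6 and 100 in the untreated group and to 59.1, 121 and 71.7 in the treated group, with Jchain and Mzb1 called in both comparisons and Cd79a also in treated mice; Ms4a1 was at 0 in all WT libraries. Mzb1, at 1 to 7 counts per WT library, also passed the filter only through the HD mice. The part of these 3 immune classes in the GTPase levels was not tested.

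Markers of resident cells that can make these GTPases were summed in the same way. Microglia markers summed to 313 to 345 CPM in WT mice, to 358, 401 and 698 in the untreated group and to 451, 527 and 521 in the treated group. Of the 8, none was called in untreated mice by edgeR (5 at an unadjusted P under 0.05, 3 by DESeq2), and Siglech was called in treated mice. Endothelial markers summed to 139 to 169 CPM in WT, 183 to 226 in untreated and 197 to 216 in treated mice, with Cldn5 and Tek higher in both. Astrocyte markers summed to 3071 to 3647 CPM in WT and 3354 to 3773 over the HD mice, with S100b called in treated mice by edgeR and 3 of 7 by DESeq2. Gfap, the filament of reactive astrocytes, stood at 143, 180 and 86.2 CPM in WT mice, at 231, 264 and 575 in the untreated group and at 238, 477 and 369 in the treated group. Every HD mouse lay above every WT mouse, and Gfap did not pass (log2 fold change 1.39, SE 0.40, edgeR adjusted p = 0.0546, and 1.40, SE 0.40, adjusted p = 0.0838). Choroid plexus markers, a sign of how the tissue was cut, summed to 65.1, 3752 and 1207 CPM in WT mice, 35.0 to 185 in untreated and 38.0 to 1262 in treated mice, with Clic6 called lower in untreated mice. Red blood cell genes summed to 107 to 190 CPM in WT and 2.77 to 67.3 over the HD mice, with 0 of 5 called by edgeR or DESeq2 in either comparison (0 and 5 at an unadjusted P under 0.05). Projection neuron markers fell, 8 of 8 in untreated and 7 of 8 in treated mice. The part of these cell types and of the dissection in the GTPase levels was not tested.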

How the data were processed

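Total RNA from the striatum of 9 mice was sequenced with an oligo-dT primed kit. The deposited values are raw read counts per gene made by the authors; their methods name STAR, while the submitters' processing notes name Trimmomatic 0.39, FastQC 0.11.9, HISAT2 2.2.1 and featureCounts 2.0.1. The mouse build, the strand setting and the handling of reads shared by near-identical genes are not given in the sources used here, so single paralogues are less certain. Pig libraries were not used here.

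Symbols were matched for 52081 of 55357 gene IDs. Counts of 27184356 to 32102121 per library were filtered by expression (19463 genes), scaled by TMM and tested with edgeR 4.0.16 (quasi-likelihood, all 9 libraries in 1 fit, Benjamini-Hochberg over all genes tested; called at an adjusted p under 0.05) in R 4.3.3. The procedure was tested on simulated data. DESeq2 1.42.0 and other settings were alternatives. Levels are CPM with TMM library sizes; likeness and spread used log2 CPM with a prior count of 2. Nothing states that the mice of a group came from separate litters or runs, so p-values measure the spread between these libraries. Members and lists were chosen with earlier results of these data known. All 10 members were named, and in each list every called gene if 3 or fewer, otherwise the 3 with the smallest P, plus Ifng and Irf1 and genes most like the members; 1 item that this rule names is not reported here. A few further list genes (Ifngr1, Jak1, Jak2, Socs1, Socs3, Gfap, Irgc1, Ifnb1, Ifna2, Ifna4) were named after their values were seen. Promoter windows came from RefSeq (GRCm38.p6), and motif searches used Python.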

Additional observations from a re-analysis of the deposited data

How the results depend on the processing

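In untreated against WT, where 7 members were called, every alternative kept all 10 log2 fold changes positive. The count was 10 by DESeq2, beside 3473 of the 19463 genes tested (in either direction). It was 8 with at least 10 counts in every library, 5 with only the 2 compared groups and 1 with no low-count filter. Over the 9 fits that leave out 1 mouse each it was 0 to 10. The Y-linked term, which sets untreated mouse 1 alone against WT, gave a median log2 fold change of 1.53. In treated against WT, where 1 was called, DESeq2 gave 8, no low-count filter 0, at least 10 counts in every library 3, only the 2 compared groups 8, the Y-linked term 0, and the fits without 1 mouse 0 to 8. Leaving out both HD mice numbered 3, chosen after seeing the data, gave 8. An unadjusted P under 0.05 with 2-fold gave 10, beside 3.84% of all genes. P under 0.01 with 2-fold gave 6, and the share of all genes under that rule is not given. The Y-linked term turned Gbp4 and Gbp5 to −0.55 and −0.83 in treated against WT. The size of that term rests only on untreated mouse 1 against untreated mice 2 and 3, so the treated mice play no part in this shift. Why untreated mouse 1 differs from the other 2 was not tested.

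A replicate block gave 9 members called in untreated against WT, 6 in treated against WT and 0 in treated against untreated. For this fit and the other refits against WT, DESeq2 aside, the share of all genes called is not given. Deviations of same-numbered treated and untreated mice correlated at 0.19, −0.003 and 0.24 over all genes. Treated mice 1 and 3 correlated best with the untreated mouse of their own number, and treated mouse 2 with untreated mouse 3 (0.019). Nothing states what the numbers stand for, and whether they mark a shared batch was not tested.

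Treated against untreated, with 0 members called under every alternative, had no stable sign. Over the fits that leave out 1 mouse, the log2 fold changes ran from −1.99 to 1.28 in Gbp2, −1.30 to 0.77 in Gbp3, −2.13 to 1.39 in Gbp4, −1.65 to 1.21 in Gbp5, −1.46 to 1.07 in Gbp6, −1.39 to 0.90 in Gbp7, −1.60 to 1.26 in Igtp, −1.77 to 0.82 in Irgm1, −1.14 to 1.17 in Irgm2 and −2.03 to 1.35 in Iigp1. Without both HD mice numbered 3, Gbp5 stood at 0.21 and Irgm2 at 0.18. A prior count of 0.5 moved no member mean by more than the SD between mice. With 3 mice a group the spread between mice sets the SE; how depth limits these values was not tested.

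Counts over the lists moved as well under the 17 alternative fits: the other interferon-inducible GTPases had 0 to 15 called higher in untreated and 0 to 12 in treated mice, and the T and NK cell markers 0 to 6 and 0 to 4. Ifngr2's list kept 1 called higher in untreated mice in all 17, and the autophagy list kept 0.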
